A study of Mus musculus with 4 samples.

Results

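The BMP receptor genes Bmpr1a, Bmpr2 and Acvr1, the Smad genes Smad1, Smad4, Smad5, Smad6 and Smad7, and the target genes Id1 and Id3 were followed in mouse small intestinal (SI) organoids with raised miR-181a-5p. The 10 genes were chosen by name because the study places miR-181a-5p under BMP signaling, and not by their values, although earlier results of these data were known. They were matched by Ensembl identifier among the 55487 genes of the deposited table. Total RNA-seq was performed on organoids grown from mouse intestinal crypts and infected with lentivirus, which delivered the miR-181a-5p mimic to one group and a miRNA mimic control to the other, with puromycin selection at 2 μg/ml in both. Each group had 2 libraries, numbered replicates 1 and 2 for the mimic control and replicates 3 and 4 for the miR-181a-5p mimic. The labels name no added BMP4 for any of the 4 libraries, and give no strain, sex or age of the mice. No source states whether separate infections gave the libraries of a group, so p-values measure only the spread between these libraries. Mature miR-181a-5p is not measured by libraries of this kind and was not analysed here.

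BMP ligands bind a pair of type I and type II receptor kinases, and the activated type I receptor phosphorylates Smad1 and Smad5. These join the common partner Smad4 and enter the nucleus, where they switch on target genes. Among the targets are the Id genes, whose products bind E proteins and keep them from DNA, and Smad6 and Smad7, which feed back on the receptors. In the intestine BMP activity rises from the crypt towards the villus, opposes Wnt signaling and restrains the stem cells.

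The miRNA recognizes an mRNA mainly through its seed, bases 2 to 8. The 4 members of the miR-181 family below (5′ arm, RefSeq sequences on GRCm38.p6) are shown because they share this seed, in capitals, so a match in an mRNA does not tell them apart.
mmu-miR-181a-5p: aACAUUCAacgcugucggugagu
mmu-miR-181b-5p: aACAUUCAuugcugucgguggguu
mmu-miR-181c-5p: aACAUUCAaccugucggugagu
mmu-miR-181d-5p: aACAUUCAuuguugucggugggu
The reverse complement of the seed, TGAATGT, was searched on the sense strand of the longest annotated 3′ UTR of each gene (GENCODE release M21, GRCm38). Of the 10 genes, 3 held 1 match each, namely Bmpr2, Smad1 and Smad7, where 18.4% of the 12847 tested genes with a 3′ UTR of at least 50 bases held a match. No member had the longer form of the match with an A opposite the first base of the miRNA, which 6.1% of tested genes had. The sites of Bmpr2 and Smad1 are printed as DNA of the mRNA strand, with the match in capitals, because they are where the mimic could pair with these mRNAs.
Bmpr2, chr1:59870975-59870981, plus strand: tgtattttattTGAATGTgcaatagtcta
Smad1, chr8:79342286-79342292, minus strand: ccctccttagcTGAATGTggcacctcctt
The Bmpr2 match began at base 490 of a 3′ UTR of 8529 bases, and the Smad1 match at base 1329 of 2041. The Smad7 match began at base 1512 of a 3′ UTR of 1570 bases. These 3 UTRs with a match were longer than the median of 1165 bases over the tested genes, and the share of 18.4% was not corrected for length. The 3′ UTRs of Bmpr1a, Smad4 and Smad5, at 3810, 1249 and 4899 bases, were also longer than that median but held no match. Those of Acvr1, Id1, Id3 and Smad6, also without a match, were 1105, 563, 536 and 448 bases long, shorter than that median. In the coding sequence, Bmpr1a and Smad1 held 1 match each, and 12.7% of tested genes held one there.

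The expected counts, RSEM's estimates of the reads from each gene, summed to between 31104884 and 38111731 per library. The libraries were epithelial, with the 8 intestinal epithelium markers summing to 2350 and 2376 TPM (a level corrected for transcript length and scaled to the same library total) in control libraries and 2090 and 2498 TPM with the mimic. Epcam and Krt8 led this list at means of 645 and 617 TPM, and Slc12a2 and Olfm4 led the stem cell list. Mesenchymal cells, a source of BMP ligands and antagonists in the gut, left little trace. Their 10 markers summed to 2.76 and 4.47 TPM in control libraries, against 4.52 and 7.45 TPM in mimic libraries, most of it from Vim, and 4 of them, Col1a2, Col3a1, Dcn and Lum, had no count in any library. Endothelial (6 genes) and immune (7 genes) markers summed to at most 1.0 and 1.61 TPM. Among the 8 epithelium and 6 stem cell markers, Cdx1 was higher (log2 fold change 0.47, adjusted p = 0.0477 in edgeR) and Lgr5, a stem cell marker, was lower with the mimic (log2 fold change -1.38, adjusted p = 0.0369). Without mimic replicate 3 or 4 the adjusted p of Cdx1 in edgeR was 0.211 or 0.074, while that of Lgr5 stayed under 0.05 whichever library was left out but was 0.103 in the robust test, 0.0975 without a filter and 0.136 to 0.322 with limma on TPM. Over all tested genes 3.57% were called. The other epithelium markers were not called, and the 8 split into 4 higher and 4 lower, with a median log2 fold change of -0.044. Krt18 had -0.60 (SE 0.17, adjusted p = 0.0942 in edgeR), with both mimic libraries below both controls. Cdx2 went the other way, at 0.32 (SE 0.09, adjusted p = 0.0902 in edgeR), with both mimic libraries above both controls. Over all tested genes, the groups did not overlap for 58.4%. The other 5 stem cell markers were not called. Smoc2, Slc12a2, Olfm4 and Axin2 had log2 fold changes of 0.48, 0.26, 0.22 and 0.05, Ascl2 had -0.49, and the median of the 6 was 0.135. The share of mitochondrial transcripts was 4.31% and 4.55% in control libraries and 3.46% and 3.43% in mimic libraries, and its part in the values below was not tested.

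The first question was whether the transcripts of this signaling chain changed with the miR-181a-5p mimic. None of the 10 genes was called, and the receptors, Smad1, Smad4 and Smad5 were close to their control levels. Rounded expected counts entered the quasi-likelihood test of edgeR, and p-values were adjusted by the Benjamini-Hochberg method over the 17155 genes that passed the filter on low counts. All 10 genes passed this filter, Smad6 through the mimic libraries alone, since its counts in the controls were under the filter's limit. At an adjusted p under 0.05, 0 of the 10 were called, beside 3.57% of all tested genes, with 0 higher beside 1.28% and 0 lower beside 2.29%. When a fold change of 2 or more was also required, the share of all tested genes was 2.06%. Without adjustment, 1 of the 10, Smad6, had p under 0.05, beside 24.8% of all genes. Of the other tools, edgeR's exact and likelihood-ratio tests each called 1 of the 10, again Smad6, beside 10.4% and 10.9% of all genes. DESeq2 and limma on TPM called none, but DESeq2 gave Smad6 no adjusted p and the filtered TPM fits did not include it.

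The median log2 fold change was -0.016 over the 10 genes and -0.012 over all genes tested. In size, regardless of sign, the median was 0.123 over the 10 genes and 0.239 over all genes. The 95% confidence interval lay within a fold change of 2 in either direction for 8 of the 10 genes, all but Smad6 and Id3, and within a fold change of 1.5 for 7 of them, Id1 being the further exception. In bulk organoids, fewer cells of a type and less RNA per cell cannot be told apart. For 1 gene alone, the smallest p of an exact permutation test with 2 libraries per group is 0.333, and the adjusted p-values therefore rest on the spread shared across genes.

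**Figure D1:**
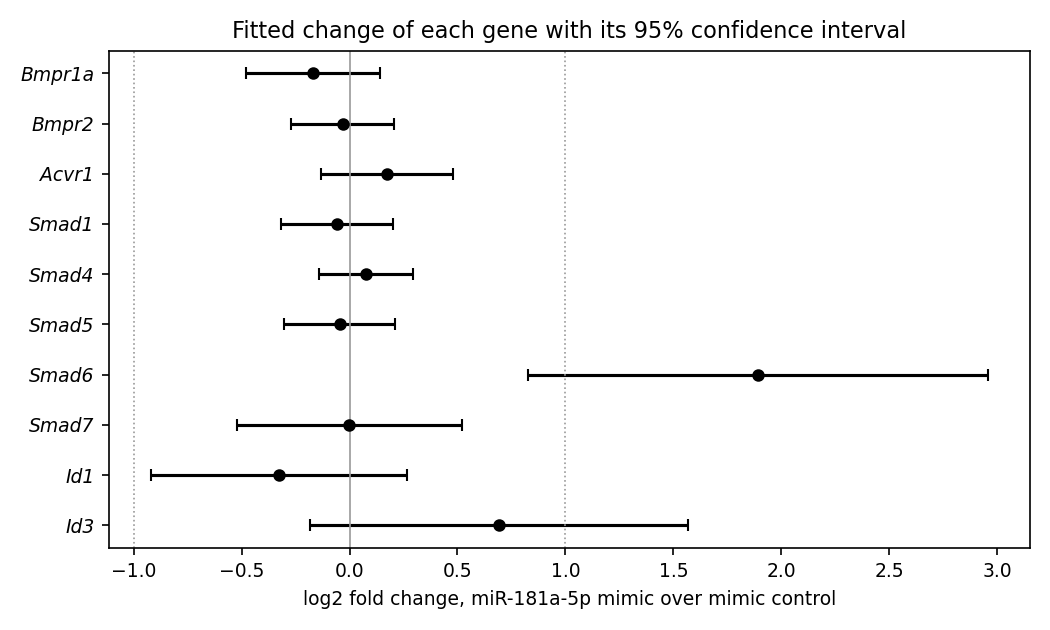
Log2 fold change of each gene (miR-181a-5p mimic over mimic control, edgeR fit, n = 2 libraries per group) on the x axis, with bars for the 95% confidence interval. Dotted lines mark a fold change of 2. The intervals of 9 genes include 0, and that of Smad6 runs from 0.82 to 2.96, although its p-value adjusted over all genes was 0.0678.

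Among the receptors, Bmpr1a encodes the type I receptor of the intestinal epithelium and is annotated on the minus strand at chr14:34410734-34503341 (GRCm38). Its level was 207 and 255 normalized CPM (counts relative to the TMM-corrected library size) in control libraries and 188 and 223 normalized CPM with the mimic. The groups overlapped, since mimic replicate 4 stood between the controls. Its log2 fold change was -0.17 (standard error, SE, 0.13, 95% confidence interval -0.48 to 0.14, adjusted p = 0.466 in edgeR), and it was -0.32 without control replicate 1 and -0.01 without control replicate 2. Its expected counts were not whole in any of the 4 libraries (tolerance 0.001), as RSEM gives where reads match more than 1 gene, and they were whole for the other 9 genes.
Bmpr2, the type II receptor on chromosome 1 from 59763400 to 59879014, had 114 and 122 normalized CPM in control libraries, against 109 and 122 in mimic libraries. The values of the groups were interleaved, and the log2 fold change was -0.03 (SE 0.10, 95% confidence interval -0.27 to 0.21). The seed match in its 3′ UTR shown above thus stood beside a fitted fold change of 0.978. Acvr1, a second type I receptor that also serves activin-related ligands, lies on chromosome 2 from 58388644 to 58567157 and had 15.0 and 16.9 normalized CPM in control libraries, against 18.2 and 17.8 in mimic libraries. Both mimic libraries were above both controls. The log2 fold change was 0.17 (SE 0.13, 95% confidence interval -0.13 to 0.48, adjusted p = 0.445 in edgeR), so this difference was not past the threshold, and it ranged from 0.08 to 0.27 with 1 library left out.

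The receptor-activated Smad1 and Smad5 and their partner Smad4 had the narrowest confidence intervals beside Bmpr2, and all of them included 0. Smad1, on chromosome 8 from 79338395 to 79399518, had 60.1 and 52.9 normalized CPM in control libraries, against 51.8 and 56.7 in mimic libraries. Smad5, on chromosome 13 from 56703010 to 56742377, had 66.4 and 57.5 normalized CPM in control libraries, against 58.0 and 62.1 in mimic libraries. In both genes control replicate 1 was highest and the groups overlapped. The log2 fold change was -0.06 (SE 0.11, 95% confidence interval -0.32 to 0.20) for Smad1, which holds a seed match in its 3′ UTR and in its coding sequence, and -0.05 (SE 0.11, 95% confidence interval -0.30 to 0.21) for Smad5, which holds neither. Smad4, shared by the BMP and TGF-β branches, lies on chromosome 18 from 73639009 to 73703780. It had 108.2 and 102 normalized CPM in control libraries, against 114 and 108.3 in mimic libraries, so the lower mimic library was barely above the higher control. Its log2 fold change was 0.08 (SE 0.09, 95% confidence interval -0.14 to 0.30, adjusted p = 0.648 in edgeR).

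The inhibitory Smads had the lowest levels of the 5 Smads among the 10 genes. Smad6, which acts mainly on BMP receptors and Smad1, lies on chromosome 9 from 63953076 to 64022059 and was barely detected. It had 6 and 5 expected counts in control libraries, against 20 and 20 in mimic libraries, or 0.157 and 0.161 normalized CPM against 0.639 and 0.562. Both mimic libraries were above both controls, and the spread within each group was small beside the gap. Its log2 fold change was 1.89 (SE 0.46, 95% confidence interval 0.82 to 2.96), a fitted fold change of 3.71, with an unadjusted p of 0.00376 and an adjusted p of 0.0678 in edgeR's quasi-likelihood test. The exact 95% Poisson intervals, which cover counting error only, were 2.20 to 13.1 and 1.62 to 11.7 counts in control libraries and 12.2 to 30.9 counts in each mimic library. In counts, the interval of control replicate 1 overlapped those of the mimic libraries, and that of control replicate 2 did not. These counts were not corrected for library size, which was largest in control replicate 1. The overlap therefore cannot tell which control was nearer to the mimic libraries in level.
Because Smad6 entered the fit only through the mimic libraries, where it was high, its p-values and calls are given as a description. The adjusted p of Smad6 was 0.0122 in edgeR's exact test and 0.00753 in the likelihood-ratio test, and between 0.0638 and 0.314 in the other fits that gave one. The log2 fold change stayed between 1.81 and 1.99 without any 1 of the 4 libraries. Its level was too low for DESeq2 to give an adjusted p, and below the filters of 1 TPM and of 10 counts in every library.
Smad7, which blocks both BMP and TGF-β receptors, lies on chromosome 18 from 75367529 to 75395935 and had 5.14 and 7.52 normalized CPM in control libraries, against 6.35 and 6.24 in mimic libraries. The mimic libraries lay between the controls. Its fitted fold change was 1.0, with a 95% confidence interval from 0.697 to 1.43 (adjusted p = 0.999 in edgeR), beside a seed match near the end of its 3′ UTR. No direction can be given for Smad7, since its log2 fold change was -0.26 without control replicate 1 and 0.30 without control replicate 2. Whether Smad6 and Smad7 differed from each other in their response was not tested.

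Id1 and Id3 encode small helix-loop-helix proteins without a DNA-binding region and are standard readouts of BMP activity. Id1, on chromosome 2 from 152736251 to 152737410, had 7.56 and 7.36 normalized CPM in control libraries, against 7.504 and 4.44 in mimic libraries. Mimic replicate 3 lay between the controls, and mimic replicate 4 was the lowest. The log2 fold change was -0.33 (SE 0.25, 95% confidence interval -0.92 to 0.27, adjusted p = 0.460 in edgeR), and it was 0.01 without mimic replicate 4 and -0.74 without mimic replicate 3. Id3, on chromosome 4 from 136143497 to 136145755, was lower in counts, with 34 and 31 expected counts in control libraries, against 62 and 39 in mimic libraries. In normalized CPM this was 0.887 and 1.0 against 1.98 and 1.10, so the groups were apart but mimic replicate 4 was close to the controls. The log2 fold change was 0.69 (SE 0.38, 95% confidence interval -0.18 to 1.57, adjusted p = 0.293 in edgeR), and it was 0.23 without mimic replicate 3 and 1.08 without mimic replicate 4. In each Id gene the mimic libraries thus differed more from each other than the controls did. Neither target was past the threshold, and a change of up to 1.57 on the log2 scale in Id3 lies within the interval.

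**Figure D2:**
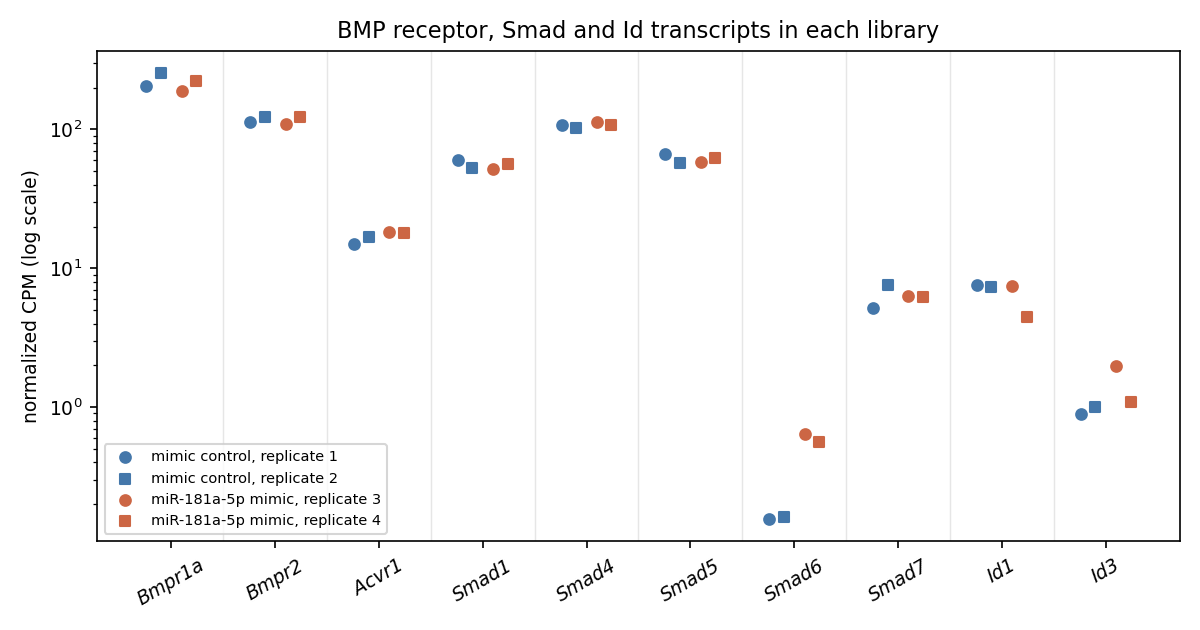
Normalized CPM (log scale) of the 10 genes in each of the 4 libraries, with mimic controls in blue and miR-181a-5p mimics in orange. The groups are apart in Acvr1, Smad4, Smad6 and Id3, and the gap is widest in Smad6, at 0.157 and 0.161 against 0.639 and 0.562 normalized CPM.

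Across the 10 genes the mimic libraries were both above both controls for 4, Acvr1, Smad4, Smad6 and Id3, and both below for 0. Over all tested genes, the groups did not overlap for 58.4%, with 28.9% higher and 29.5% lower, so 4 of 10 apart is not a result about these genes.

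The levels of the 10 genes could be ordered in TPM. Bmpr1a was highest with a mean of 61.3 TPM over the 4 libraries (50.8 to 72.0 TPM), followed by Smad4 at 46.5 TPM (45.2 to 47.2 TPM) and Smad1 at 24.4 TPM (22.2 to 26.5 TPM). Smad5 at 13.2 TPM and Bmpr2 at 11.8 TPM overlapped in their ranges, as did Id1 at 9.37 TPM and Acvr1 at 8.07 TPM. Smad7 at 2.07 TPM and Id3 at 1.69 TPM overlapped too, and Smad6 was lowest at 0.160 TPM (0.06 to 0.26 TPM). The receptors and transducers were thus well above the inhibitory Smads and Id3.

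By role, Bmpr1a gave most of the type I receptor level. Its share of the summed TPM of Bmpr1a, Bmpr1b and Acvr1 was 89.4% and 90.5% in control libraries, against 85.8% and 87.3% in mimic libraries. Bmpr1b, the other BMP type I receptor, had 2 counts in mimic replicate 4 and 0 in the other libraries. Smad1 gave 64.9% and 65.0% of the summed TPM of Smad1, Smad5 and Smad9 in control libraries, against 65.0% and 64.7% in mimic libraries. The balance between these Smads thus moved by less than 1 percentage point across the 4 libraries.
The summed TPM of Id1 to Id4 was 30.5 and 27.3 in control libraries, against 27.4 and 23.1 in mimic libraries. Id2, and not Id1 or Id3, was the main Id transcript, with 61.9% and 56.1% of that sum in control libraries and 51.4% and 63.1% with the mimic. Its log2 fold change was -0.31 (SE 0.15, adjusted p = 0.26 in edgeR). That of Id4, at a mean of only 0.305 TPM, was 1.125 (SE 0.38, adjusted p = 0.128 in edgeR), and neither was called. The E protein genes Tcf3, Tcf4 and Tcf12, whose products the Id proteins bind, summed to 98.1 and 94.2 TPM in control libraries, against 110 and 114 TPM in mimic libraries. These sums were not tested.

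**Figure D3:**
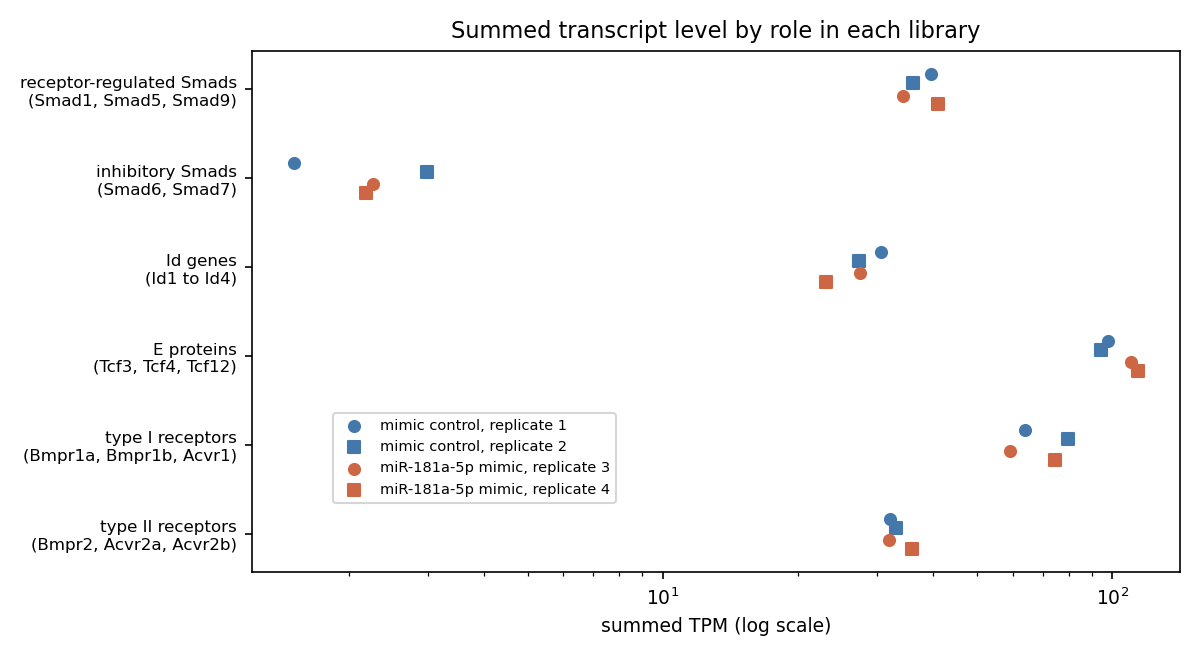
Summed TPM (log scale, x axis) of genes with the same role in each of the 4 libraries, with mimic controls in blue and miR-181a-5p mimics in orange. E proteins sum to 94.2 to 114 TPM, the Id genes to 23.1 to 30.5 TPM and the inhibitory Smads to 1.51 to 2.98 TPM, where both mimic libraries lie between the controls.

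The rest of the pathway was described with lists of ligands, antagonists, other receptors, Smad regulators, target genes, E proteins and related factors, and the TGF-β branch. These lists held 96 further genes, of which 60 passed the filter on low counts. At an adjusted p under 0.05, 0 were higher and 0 were lower in edgeR's quasi-likelihood test, and 17 had an unadjusted p under 0.05 (9 higher and 8 lower), beside 24.8% of all genes. The median log2 fold change of the 60 genes was -0.020, with 29 above 0 and 31 below. The exact and likelihood-ratio tests of edgeR each called 3 of them, Fstl1, Tgfbr1 and Tcf3, beside 10.4% and 10.9% of all genes, and DESeq2 called 2, Tgfbr1 and Tcf3, beside 9.32%. Fstl1, which encodes a secreted follistatin-like protein, had 15 and 14 expected counts in control libraries, against 5 and 0 in mimic libraries. It passed the filter on low counts through the control libraries alone, so its calls are no support for a difference. Without control replicate 2, edgeR's quasi-likelihood test called 5, namely Bmp3, Acvr1c, Tgfbr1, Neurog3 and Tgfbi, beside 13% of all genes, and without mimic replicate 4 it called 1, Bmp2, beside 4.61%. None of these counts of calls at an adjusted p under 0.05 is a larger share of the 60 genes than of all genes. The 17 genes with an unadjusted p under 0.05 are a slightly larger share of the 60 than the 24.8% of all genes.

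Of the 19 ligand genes, 9 were tested. Bmp4, the ligand the study centres on, had 1 count in control replicate 2 and 0 in the other libraries, with exact 95% Poisson upper limits of 5.57 and 3.69 counts. The ligands with the highest TPM were Bmp3, an atypical BMP that antagonizes the others, and Gdf15, a distant stress-induced relative. Bmp3 had 37.7 and 14.9 TPM in control libraries, against 12.6 and 16.3 TPM in mimic libraries. Control replicate 1 stood above the other 3 libraries. Its log2 fold change of -0.91 (SE 0.36, adjusted p = 0.175 in edgeR) was -0.10 without that library and -1.42 without control replicate 2. Gdf15 had a log2 fold change of 0.09 (SE 0.22). Bmp2 and Bmp7 were close to it in level, at means of 4.97 and 4.87 TPM beside 5.23 TPM for Gdf15. Bmp2 had 16.4 and 17.9 normalized CPM in control libraries, against 8.85 and 13.5 in mimic libraries. Its log2 fold change was -0.62 (SE 0.20, adjusted p = 0.125 in edgeR), and that of Bmp7 was 0.18 (SE 0.14).
Of the 16 secreted or membrane-bound antagonists 5 were tested, and Nog (noggin) had 0 counts in all 4 libraries. Crim1 and Twsg1, which bind BMPs outside the cell, had the highest TPM of the list and log2 fold changes of 0.17 (SE 0.10) and 0.15 (SE 0.12). Of the 13 other receptors and co-receptors 11 were tested, with a median log2 fold change of 0.001. Rgmb, a BMP co-receptor, had 70.7 and 53.0 TPM in control libraries, against 62.5 and 64.7 TPM in mimic libraries (log2 fold change 0.01, SE 0.15), and Tgfbr2, the TGF-β type II receptor, had a log2 fold change of -0.23 (SE 0.11, adjusted p = 0.241 in edgeR).

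Among 21 other Smads and Smad regulators 20 were tested, with a median log2 fold change of 0.011. Fkbp1a, which holds type I receptors inactive, and Ppm1a, a phosphatase, had the highest TPM and log2 fold changes of 0.08 and 0.00 (SEs 0.09 and 0.10). Of 14 other BMP target genes 5 were tested, with a median log2 fold change of 0.214. Hes1, better known as a Notch target, and Tob1, an antiproliferative factor, led this list in TPM, with log2 fold changes of 0.23 (SE 0.15) and -0.05 (SE 0.10). The median of 9 tested E protein and intestinal bHLH genes was 0.038. Tcf3, which encodes the E proteins E12 and E47, had 40.2 and 40.6 TPM in control libraries, against 53.5 and 54.2 TPM in mimic libraries. Both mimic libraries were above both controls, and the log2 fold change was 0.38 (SE 0.09, adjusted p = 0.0737 in edgeR). In the TGF-β branch 12 of 15 genes were tested, with a median log2 fold change of -0.115, and Acvr1b, an activin type I receptor, had -0.16 (SE 0.10).

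**Figure D4:**
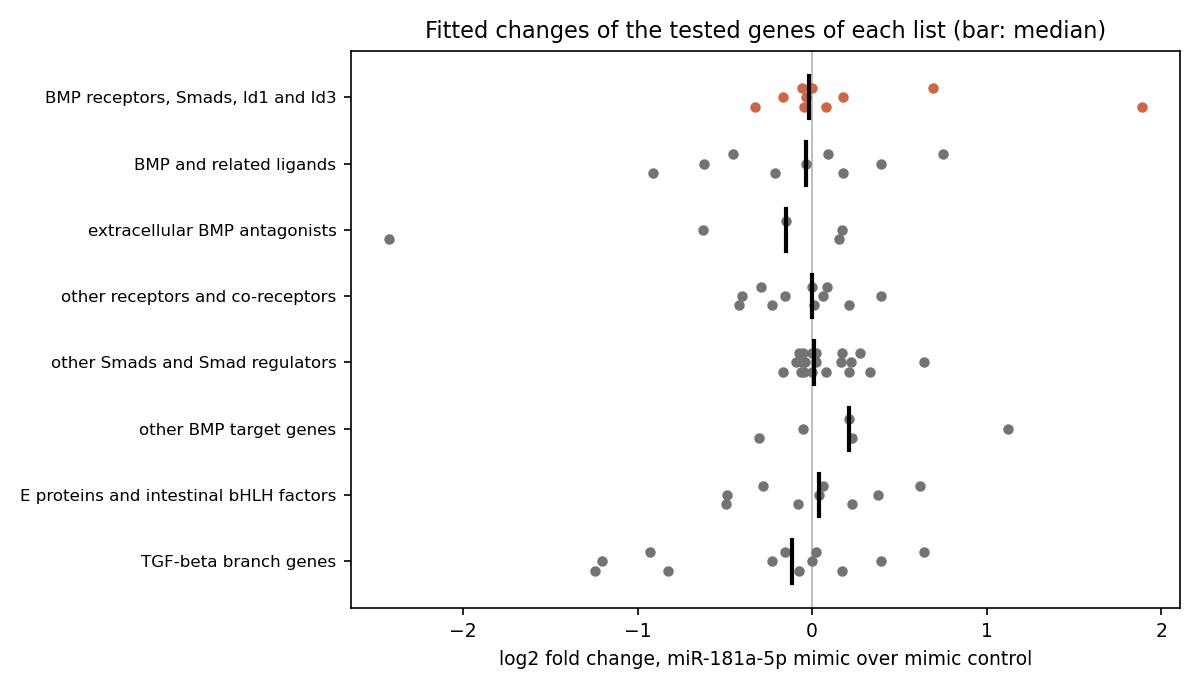
Log2 fold change (miR-181a-5p mimic over mimic control, edgeR fit) of every tested gene of each list on the x axis, with a black bar at the list's median. The medians run from -0.151 for the antagonists to 0.214 for the other BMP targets, and Fstl1 (-2.43, from 15, 14, 5 and 0 expected counts) and Smad6 (1.89) are the farthest points.

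Smad6 had the smallest unadjusted p of the 10 genes, and genes with the most similar pattern were sought among tested genes with a mean of at least 100 counts. Likeness was the Euclidean distance between log2 normalized CPM (pseudocount 0.1) centred over the 4 libraries. The nearest were Gm28588, an antisense transcript on chromosome Y from 841783 to 847750 with counts that were not whole (distance 0.117), Dio1, the type 1 iodothyronine deiodinase on chromosome 4 from 107291465 to 107307169 (0.131), and 6430548M08Rik on chromosome 8 from 120114152 to 120165306 (0.161). Dio1 had 2.37 and 2.39 normalized CPM in control libraries, against 7.79 and 6.60 in mimic libraries. With 4 libraries, any gene that is low in both controls and high in both mimics by a like amount comes out near Smad6.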

How the data were processed

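Total RNA-seq libraries of mouse SI organoids with a mimic control (n = 2) or a miR-181a-5p mimic (n = 2) were used. The authors trimmed reads with Trimmomatic and quantified them with RSEM on the transcripts of GRCm38 (mm10). Their deposited tables give expected counts, which are not normalized, and TPM, which have a common library total. Versions and the annotation release are not given in the sources used here. On library preparation the sources differ, with poly(A) selection in the labels and ribosomal RNA depletion in the study's methods. Replicate numbers were read from the ends of the library titles. In each table, 3 columns, whose names read like further control and overexpression libraries, matched no sample and were not used.

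Rounded expected counts were fitted in R 4.3.3 by edgeR 4.0.16 (TMM factors, functions filterByExpr, estimateDisp, glmQLFit and glmQLFTest). P-values were adjusted by the Benjamini-Hochberg method. Calls used an adjusted p under 0.05, and the fold change of at least 2 that the authors' methods name where stated. A standard error is the size of the log2 fold change divided by the square root of F, and the 95% confidence interval uses the moderated degrees of freedom. Symbols matched 55141 of 55487 identifiers, and coordinates came from GENCODE release M21 (GRCm38). Alternatives were edgeR's exact, likelihood-ratio, robust and legacy tests, DESeq2 1.42.0, RLE, upper-quartile and no factors, no count filter or a minimum of 10 counts per library, limma 3.58.1 on log2(TPM + 1) or log2(TPM + 0.1), and leaving out each library. The quasi-likelihood and exact tests were also run on simulated counts with the spread of these libraries, and no result here rests on that run. Plots were drawn with matplotlib 3.10.9. The counting's use of strand is not stated, and Bmpr1a, Acvr1 and Smad4 overlap annotated genes on the opposite strand. Counts were low in Smad6 and Id3, and how far depth and the spread between replicates each limit precision was not tested.

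The 10 genes and the lists were chosen with earlier results of these data known. Named besides the 10 genes were the 2 tested genes with the highest mean TPM of each pathway list, list genes with an adjusted p under 0.05, and the 3 genes nearest in pattern to the gene with the smallest p. Of each marker list the 2 tested genes with the highest TPM were to be named, which was done here for the epithelium and stem cell lists. Bmp2, Bmp4, Bmp7, Bmpr1b, Nog, Id2, Id4, Vim, Krt18, Cdx2, Fstl1, other markers at 0 and genes called only in alternatives were named after their values were seen.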

Additional observations from a re-analysis of the deposited data

How the results depend on the processing

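Over the 17 alternatives, 166 log2 fold changes of the 10 genes could be computed, of which 148 kept their direction and side of the threshold, 2 crossed it (Smad6 in edgeR's exact and likelihood-ratio tests, which called 1 gene each) and 16 changed sign. The sign changes were in genes with a fitted change near 0, or rested on 1 library. Bmpr2 was at 0.0219 with limma on log2(TPM + 1) with or without a filter, at 0.0230 on log2(TPM + 0.1), and between -0.12 and 0.0571 when a library was left out. Smad7 was at 0.0145 with DESeq2, 0.0055 with RLE factors, 0.0238 with library totals, 0.0118 without a filter, and between -0.26 and 0.30 when a library was left out. Leaving out a library gave -0.14 to 0.0310 for Smad1, -0.14 to 0.0560 for Smad5 and -0.74 to 0.0113 for Id1. Of the other named genes, Rgmb was at -0.0431 with upper-quartile factors and -0.0019 with at least 10 counts (-0.19 to 0.25 with a library left out), Ppm1a at -0.05 and -0.0115 in the same fits (-0.0695 to 0.0718), and Tob1 at 0.0113, 0.0115 and 0.0113 in the same TPM fits as Bmpr2 (-0.13 to 0.0231). Gdf15 ranged from -0.10 to 0.27 with a library left out. The median of the 10 genes stayed between -0.066 and 0.043.

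Over all genes, at a fold change of at least 2, 101 were higher and 253 lower. These were 200 and 526 in the exact test, 214 and 559 in the likelihood-ratio test, 50 and 108 without a filter, 30 and 41 with limma on log2(TPM + 1), 11 and 16 on log2(TPM + 0.1), and 2 and 0 on unfiltered TPM, where 0 lower genes is limma's count. With a library left out they ran from 115 to 230 and from 166 to 661. By adjusted p alone 612 genes were called, against 1778, 1864, 192, 75, 27 and 2 in the same order, 1298 with DESeq2 and 373 to 2365 with a library left out, the most without control replicate 2. A group left with 1 library is assumed to vary like the other group. Of the 60 other pathway genes, 3, 3 and 2 were called by the exact test, the likelihood-ratio test and DESeq2, and 0 to 5 with a library left out. The number of the 10 genes called stayed at 0 with any library left out. Cdx1 also missed the threshold in the legacy test (0.0516), with upper-quartile factors (0.0628), without a filter (0.106) and in the TPM fits, and Lgr5 in the robust test (0.103), without a filter (0.0975) and in the TPM fits (0.136 to 0.322). The seed match with an added A gave 0 genes in place of 3. Ordered by CPM of the expected counts in place of TPM, 5 of the 10 genes kept their rank, since counts also follow length. The cause of the other changes was not tested. No paired analysis was possible because the groups share no replicate number.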

Other observations

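Both Tgfbi and Tgfb1 of the TGF-β branch had lower values with the mimic without passing the threshold. Tgfbi, a secreted matrix protein gene, had 4.96 and 2.65 normalized CPM in control libraries, against 2.11 and 1.94 in mimic libraries (log2 fold change -0.93, SE 0.33, adjusted p = 0.148 in edgeR). Tgfb1 had a log2 fold change of -0.83 (SE 0.34, adjusted p = 0.192). Tgfbr1, the TGF-β type I receptor, had higher values with the mimic, also short of the threshold, with 47.2 and 49.4 normalized CPM in the controls and 63.5 in each mimic library (log2 fold change 0.39, SE 0.10, adjusted p = 0.0688 in edgeR). These genes were chosen after their values were seen.

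For Smad7 the deposited TPM and counts disagreed between the controls. Its TPM was 1.45 and 2.91 in control replicates 1 and 2, whereas its normalized CPM was 5.14 and 7.52. The ratio of TPM to normalized CPM ranged by a factor of 1.37 over the 4 libraries for Smad7 and by 1.09 to 1.20 for the other 9 genes. The transcript length behind the TPM is estimated separately in each library, and its part in this difference was not tested.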
